A study of Mus musculus with 8 samples.

Results

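Nfix, Zfp609, Hipk3 and Shoc2 are 4 mouse genes whose circular RNAs in the heart come mostly from a single exon, exon 2. A circular RNA forms by back-splicing, in which an exon's donor site joins an acceptor site that lies upstream of it, and it is counted by the back-spliced reads that cross the closing junction. All circles that the deposited table assigns to these gene names were taken: 18 of 27391 circles, from 4 of 6492 host genes, with 6 circles from Nfix, 2 from Zfp609, 7 from Hipk3 and 3 from Shoc2. The hosts were chosen for the share of their reads in the exon 2 circle, and large increases of the Shoc2 and Zfp609 circles in edgeR were known beforehand. That share is therefore given as a description, and the TAC values of those 2 circles are no independent support.

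The libraries come from heart tissue of male WT mice, 4 after transverse aortic constriction (TAC), which makes the left ventricle eject against a raised pressure, and 4 after a sham operation, all collected 8 weeks after surgery. The labels give neither strain nor age. The comparison asks which circles differ under lasting pressure overload. Each mouse gave 1 library, named here by its group and a number in accession order that pairs no mice. TAC replicates 1 to 4 held 33132, 1119, 21074 and 36120 back-spliced reads, and sham replicates 1 to 4 held 40796, 3963, 17890 and 100142.

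TAC replicate 2 and sham replicate 2, both under 5000 reads, stood apart by depth. In TAC replicate 2, 3 reads correspond to 17.3 normalised reads (reads divided by the size factor of the library), so a circle below that level can be missing there through counting alone. The circles read also differed in length between libraries. The median spliced length per read was 542, 334, 519 and 498 nt in TAC replicates 1 to 4, against 394, 490, 368 and 353 nt in sham replicates 1 to 4. Among the deep libraries it was longer in TAC, while the 2 shallow libraries went the other way. TAC replicate 2 was the shortest of all 8 and sham replicate 2 the longest of its group. Among the cell type marker hosts, 7 of 8 cardiomyocyte genes gave circles, with a summed level of 277 to 1669 normalised reads in TAC libraries, against 159 to 800 in sham libraries, and Nebl gave none. Fibroblast marker hosts (5 of 6 genes with circles, none from Fap) summed to 0 to 3.72 in TAC and 2.48 to 4.54 in sham libraries. Endothelial hosts (6 of 6) summed to 0 to 47.7 in TAC and 21.5 to 45.4 in sham libraries. Smooth muscle and pericyte hosts (3 of 4, none from Rgs5) summed to 0 to 5.77 in TAC and 0 to 0.379 in sham libraries, and leukocyte hosts (3 of 4, none from Csf1r) to 0 to 28.6 in TAC and 7.45 to 17.1 in sham libraries. The cardiomyocyte hosts thus gave most of the marker reads. The ranges of the 2 groups, shallow libraries included, overlapped for every list. Of 57 cardiomyocyte circles tested by limma, 45 were positive (2029 of 3735 for all circles), with a median log2 fold change of 1.01 (0.15 for all). In edgeR the median of 11 was 1.64 (-0.02 for all), with 3 called higher (7.39% of all) and 0 lower. The limma medians were -0.18 for 7 endothelial and 0.29 for 4 leukocyte circles, and the 1 fibroblast circle had -0.51. The part of depth, circle length or cell composition in the results below was not tested, and in whole tissue fewer cells of a type and less RNA per cell cannot be told apart.

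Back-splicing competes with the ordinary splicing of the same transcript, and circles often start at the second exon of a gene, because the first exon has no acceptor site to splice to. Once closed, a circle has no free end for exonucleases, so it can outlast the linear RNA of its gene. NFIX is a DNA-binding factor of the nuclear factor I family. ZFP609 is a zinc finger protein, and its human circle was studied in myoblasts. HIPK3 is a homeodomain-interacting protein kinase, and its human exon 2 circle is a widely used model of an abundant circle. SHOC2 is a leucine-rich repeat scaffold that works with MRAS and PP1 in the Ras-MAPK pathway.

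In Zfp609, Hipk3 and Shoc2 the exon 2 circle contains the start codon of the protein. The sequences are shown for that start codon and for the end of the exon that a back-spliced read joins to its beginning. Each first run starts with the annotated start codon in capitals, and each last run ends at the junction, with its last 10 bases in capitals. All are read 5′ to 3′ on the gene's strand from GENCODE M21 transcripts, with mm10 coordinates.
Zfp609, first 60 coding bases, chr9:65795309-65795368, minus strand: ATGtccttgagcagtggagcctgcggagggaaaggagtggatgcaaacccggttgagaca
Zfp609, last 60 bases of exon 2, chr9:65794622-65794681, minus strand: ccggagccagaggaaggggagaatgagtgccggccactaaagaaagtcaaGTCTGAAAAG
Hipk3, first 60 coding bases, chr2:104471786-104471845, minus strand: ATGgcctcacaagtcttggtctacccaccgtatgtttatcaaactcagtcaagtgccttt
Hipk3, last 60 bases of exon 2, chr2:104470749-104470808, minus strand: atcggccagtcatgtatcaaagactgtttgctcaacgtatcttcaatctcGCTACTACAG
Shoc2, first 60 coding bases, chr19:53987681-53987740, plus strand: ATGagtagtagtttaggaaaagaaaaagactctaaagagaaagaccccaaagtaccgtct
Shoc2, last 60 bases of exon 2, chr19:53988324-53988383, plus strand: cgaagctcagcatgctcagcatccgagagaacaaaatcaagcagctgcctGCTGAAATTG

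The Zfp609 circle (chr9:65794622-65795495, exon 2 of 10) has 874 nt, of which 127 are 5′ UTR and 747 coding. The Hipk3 circle (chr2:104470749-104471847, exon 2 of 16) has 1099 nt, 2 of them 5′ UTR and 1097 coding. The Shoc2 circle (chr19:53987454-53988383, exon 2 of 9) has 930 nt, 227 of them 5′ UTR and 703 coding. In all 3 the reading frame from the start codon runs across the closing junction and meets a stop in the circle, after 250 residues in Zfp609, 387 in Hipk3 and 239 in Shoc2. The stop codon ends 6 nt past the junction in Zfp609, 67 nt past it in Hipk3 and 17 nt past it in Shoc2. An open frame is a property of the sequence, and translation was not measured.

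The Nfix circle (chr8:84771784-84772315, minus strand, exon 2 of 11) has 532 nt, all of them coding and without the start codon. Exon 2 of its paralog Nfib has the same length, 532 nt, and 78.6% of the bases are identical (418 of 532). The 60 bases around the 2 closing junctions, the last 30 bases of exon 2 followed by its first 30, are shown because they are what a back-spliced read sees of either gene. Capitals mark the 18 bases that differ.
Nfix junction, exon 2 at chr8:84771784-84772315: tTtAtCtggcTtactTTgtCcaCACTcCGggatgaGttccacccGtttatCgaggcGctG
Nfib junction, exon 2 at chr4:82498238-82498769: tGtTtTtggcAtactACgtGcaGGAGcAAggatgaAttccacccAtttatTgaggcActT
The table held 1599 reads of the Nfix exon 2 circle and 2 of the Nfib one, out of 103 reads for all Nfib circles. The matching exon of a close paralog was thus rarely read as a single-exon circle in these hearts.

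The introns beside the circles varied among the 4 hosts. The intron upstream of exon 2 spans 1038 nt in Nfix, 31970 nt in Zfp609, 22100 nt in Hipk3 and 43051 nt in Shoc2. The downstream intron spans 43816, 63420, 24113 and 14625 nt in the same order of hosts. Among 701 single-exon circles the medians were 8456 nt upstream and 7252 nt downstream, so Nfix paired a short upstream intron (percentile 15.8) with a long downstream one (percentile 87.6), while the other 3 hosts were above both medians. Single-exon circles of exon 2, 281 of the 701, had longer introns, with medians of 19049 nt upstream and 13369 nt downstream. Hipk3 upstream and Shoc2 downstream were only a little above these. The lengths of the circles stood at percentiles 61.8 for Nfix, 80.6 for Zfp609, 87.0 for Hipk3 and 82.9 for Shoc2 of the same 701 circles. Among the exon 2 circles they stood at 50.9, 75.1, 84.7 and 78.6 in the same order. A start codon lay in 27.4% of single-exon circles and in 53.4% of the 281 that are an exon 2, so its presence in 3 of the 4 hosts is common among exon 2 circles.

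**Figure D1:**
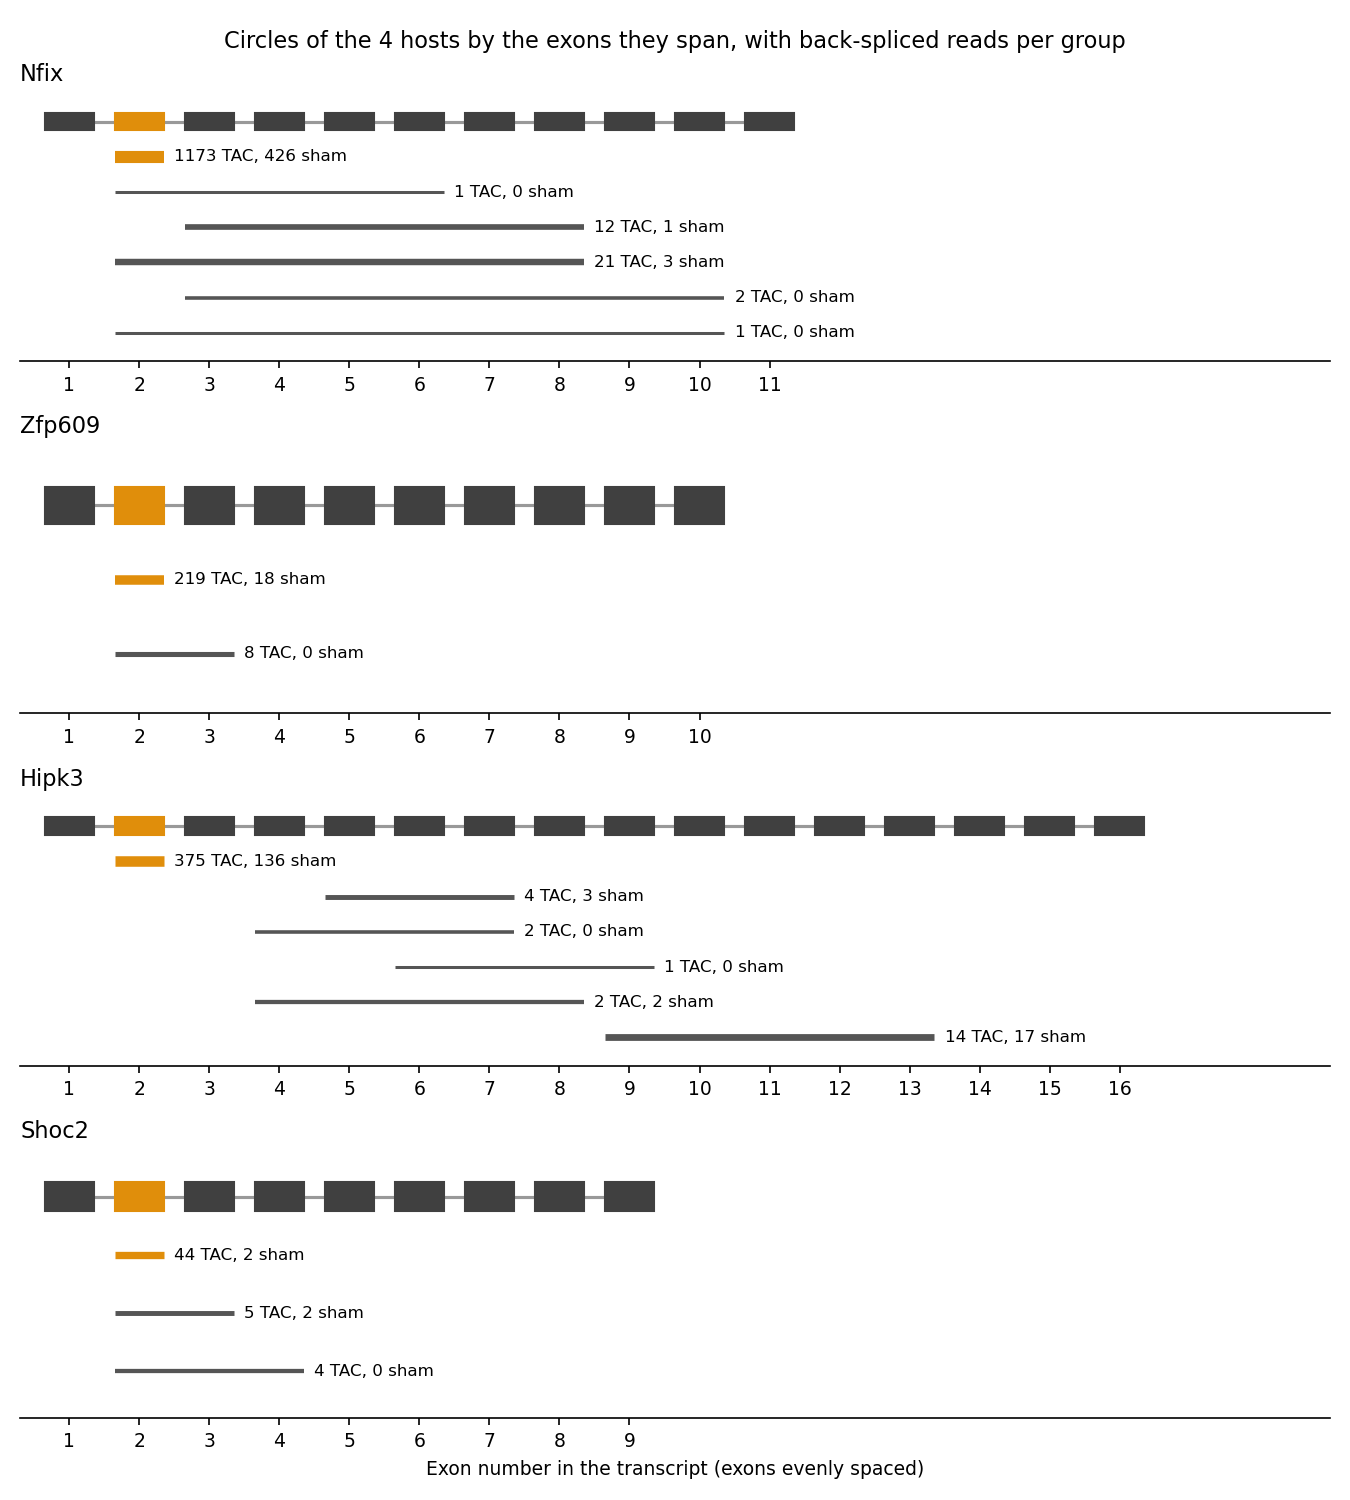
Circles of the 4 hosts drawn on their exons, numbered along the horizontal axis and not to scale, 1 line per circle, thicker for more reads, with its reads in TAC and sham libraries. The exon 2 circle holds 1599 of 1640 Nfix reads, 237 of 245 Zfp609 reads, 511 of 557 Hipk3 reads and 46 of 57 Shoc2 reads, and 1 Hipk3 circle of 1 read, whose ends match no annotated exon, is not drawn.

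By the reads of all 8 libraries, the exon 2 circle held 97.5% of Nfix reads, 96.7% of Zfp609 reads, 91.7% of Hipk3 reads and 80.7% of Shoc2 reads. These are the values the hosts were chosen by. Of 1938 hosts with at least 20 reads and 2 circles, 1025 had a circle with over 50% of their reads, so a dominant circle is common. In 44 (2.27%) the leading circle was a single exon 2, and in 36 of those it also held over 50% of the reads. Around that 50% the exon 2 circles of R3hcc1l (51.1%) and Dlc1 (54.9%) lay just above, and those of Phlpp2 (46.9%) and Insr (44.6%) just below.

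The share of the exon 2 circle was high in both groups for 3 hosts and could not be set for Shoc2 in sham hearts. In pooled reads it was 96.9% in TAC (95% Wilson interval 95.8 to 97.8) and 99.1% in sham (97.6 to 99.6) for Nfix, and 96.5% in TAC (93.2 to 98.2) and 100% in sham (82.4 to 100) for Zfp609. For Hipk3 it was 94.0% in TAC (91.2 to 95.9) and 86.1% in sham (79.8 to 90.6). For Shoc2 it was 83.0% in TAC (70.8 to 90.8) and rested on 2 of 4 reads in sham. These intervals cover counting error only, not the spread between mice: the Hipk3 share was 84.9% in sham replicate 1 and 83.1% in sham replicate 4, but 100% in sham replicates 2 and 3, on 12 and 10 reads.

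**Figure D2:**
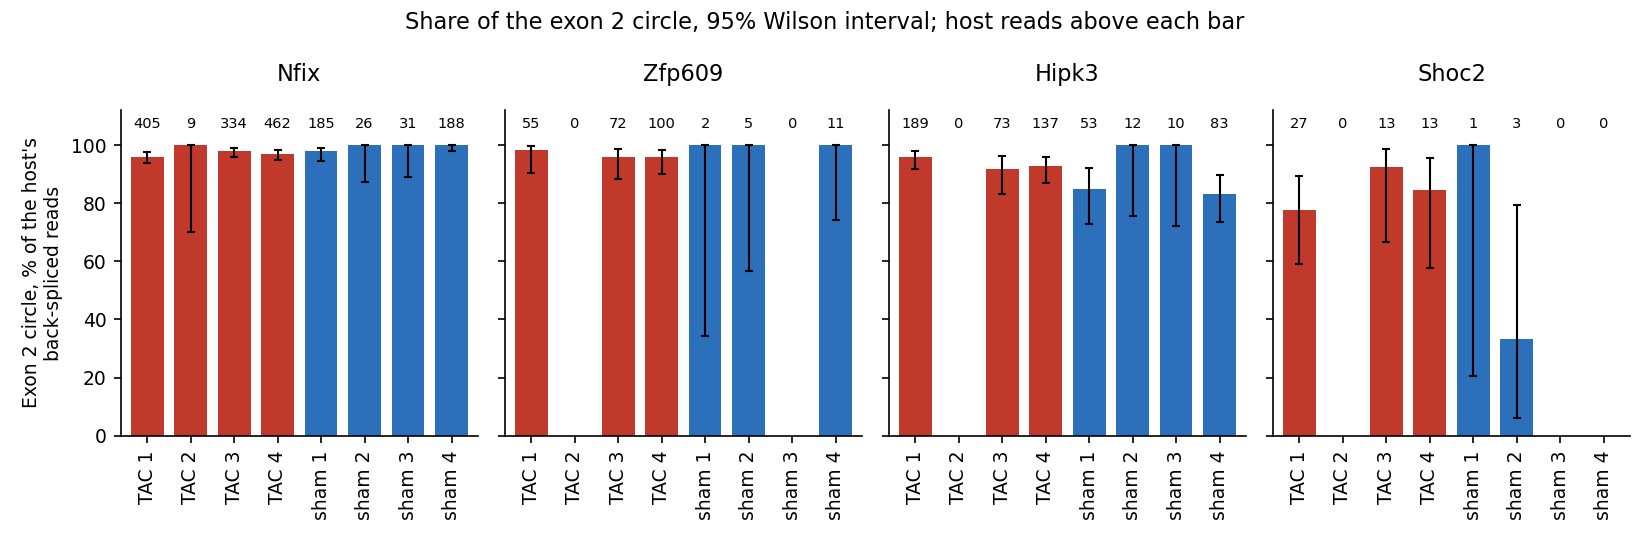
Percent of each host's back-spliced reads in the exon 2 circle, 1 bar per library, with 95% Wilson intervals and the host's reads above the bars. Nfix stays above 96% in every library, and the empty places of Zfp609, Hipk3 and Shoc2 are libraries with 0 reads of the host.

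By reads of the closing junction, which are not scaled by length, Nfix had the most abundant circle of the 4 hosts. Among the circles of each library it was number 2, 9, 2 and 2 in TAC replicates 1 to 4, against 8, 3, 58 and 58 in sham replicates 1 to 4. It had 389, 9, 327 and 448 reads in TAC replicates 1 to 4, against 181, 26, 31 and 188 reads in sham replicates 1 to 4. As normalised reads these were 289.2, 52.0, 336.6 and 284.9 in TAC, against 68.6, 118.1, 25.7 and 36.6 in sham. The groups overlapped, because the shallow TAC replicate 2 lay below 2 sham libraries and the shallow sham replicate 2 was the highest of its group. The mean was 241 ± 128 in TAC and 62.2 ± 41.5 in sham (SD, n = 4 each).

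In limma the log2 fold change of the Nfix circle, on the log2(value + 0.195) scale, was 1.89 ± 0.55 (SE, adjusted p = 0.834). In edgeR, a count model on the whole reads recovered from the values, it was 1.92 ± 0.88 (adjusted p = 0.121). Neither passed the threshold of 0.05. As reads per 10000 back-spliced reads of the library, Nfix had 117.4, 80.4, 155.2 and 124.0 in TAC, against 44.4, 65.6, 17.3 and 18.8 in sham. On this scale every TAC library lay above every sham library, which held for 0.776% of the 3735 circles tested by limma and for 1.53% of the 717 tested by edgeR. A circle with no read in TAC replicate 2, where 567 circles were seen, cannot meet this. These shares are thus bounded by the depth of that library, in which Nfix was number 9. The gap between the 2 shallow libraries was within counting error, with Wilson intervals of 42.4 to 152 per 10000 in TAC replicate 2 and 44.8 to 96.0 in sham replicate 2.

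Hipk3, number 5, 17 and 12 among the circles of TAC replicates 1, 3 and 4, against 115, 21, 273 and 211 in sham replicates 1 to 4, had 181, 0, 67 and 127 reads of its exon 2 circle in TAC replicates 1 to 4, against 45, 12, 10 and 69 in sham replicates 1 to 4. As normalised reads these were 134.6, 0, 69.0 and 80.8 in TAC and 17.1, 54.5, 8.28 and 13.4 in sham. The groups overlapped only through TAC replicate 2, whose 0 reads allow up to 26.8 reads per 10000. The other TAC libraries had 31.8 to 54.6 reads per 10000 and the sham libraries 5.59 to 30.3. The mean was 71.1 ± 55.3 in TAC and 23.3 ± 21.1 in sham (SD, n = 4 each). The log2 fold change was 0.11 ± 1.05 in limma (adjusted p = 0.997) and 1.75 ± 0.82 in edgeR (adjusted p = 0.128). With 1 in place of 0.195 added before the log, limma gave 0.63. The limma value rests on that single 0: without TAC replicate 2 it was 2.33 and passed the threshold, where 0.868% of circles were called higher in TAC, and without any of TAC replicates 1, 3 or 4, or sham replicates 3 or 4, it was below 0.

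Zfp609, number 47, 14 and 27 among the circles of TAC replicates 1, 3 and 4, against 2953, 96 and 1907 in sham replicates 1, 2 and 4, had 54, 0, 69 and 96 reads of its exon 2 circle in TAC replicates 1 to 4, against 2, 5, 0 and 11 in sham replicates 1 to 4. As normalised reads these were 40.2, 0, 71.0 and 61.1 in TAC and 0.758, 22.7, 0 and 2.14 in sham. The 3 deep TAC libraries were above every sham library, and sham replicate 2, with 5 reads, was the one sham library above 3 normalised reads. The mean was 43.1 ± 31.5 in TAC and 6.40 ± 10.9 in sham (SD, n = 4 each).

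Shoc2, number 176, 208 and 444 among the circles of TAC replicates 1, 3 and 4, against 4820 and 819 in sham replicates 1 and 2, had 21, 0, 12 and 11 reads of its exon 2 circle in TAC replicates 1 to 4, against 1, 1, 0 and 0 in sham replicates 1 to 4. As normalised reads these were 15.6, 0, 12.4 and 7.0 in TAC and 0.379, 4.54, 0 and 0 in sham. In sham hearts the circle thus rested on 2 single reads. The mean was 8.74 ± 6.82 in TAC and 1.23 ± 2.22 in sham (SD, n = 4 each).

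Zfp609 and Shoc2 passed the threshold in edgeR and missed it in limma. For Zfp609 the log2 fold change was 3.84 ± 0.92 in edgeR (adjusted p = 0.00355) and 2.94 ± 1.49 in limma (adjusted p = 0.834). For Shoc2 it was 4.67 ± 1.05 in edgeR (adjusted p = 0.00203) and 2.85 ± 1.60 in limma (adjusted p = 0.834). So edgeR called 2 of the 4 exon 2 circles higher in TAC, where it called 7.39% of all 717 circles higher and 13.1% in either direction, and limma called 0 of 4, where it called 0.0268% of 3735. The 2 called by edgeR are those whose increases were known beforehand, so their count beside that share is a description only. In their length class, 800 to 1200 nt, edgeR called 25% of circles higher. At an unadjusted p under 0.05, limma had 152 circles in all. The edgeR call of Shoc2 was lost without TAC replicate 3 (adjusted p = 0.0658), and that of Zfp609 was lost without TAC replicate 3 (0.126), TAC replicate 4 (0.0563) or sham replicates 1 (0.0767), 3 (0.112) or 4 (0.0759).

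**Figure D3:**
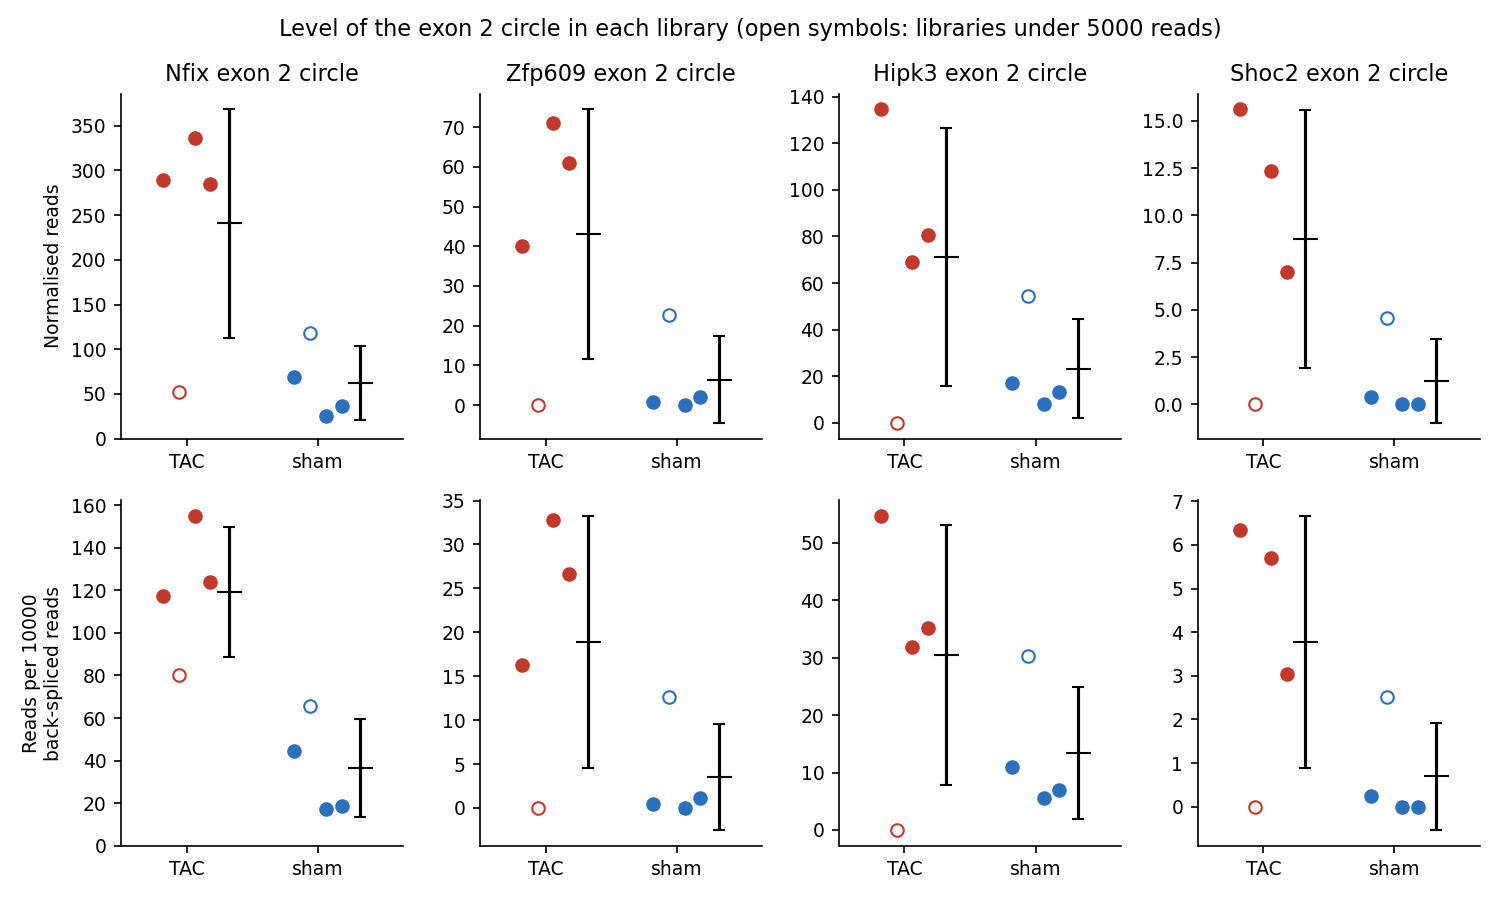
Normalised reads (upper row) and reads per 10000 back-spliced reads (lower row) of the exon 2 circle per library, 4 TAC and 4 sham hearts per host, with open symbols for the 2 libraries under 5000 reads and group means with SD. The 3 deep TAC libraries lie above the 3 deep sham libraries for all 4 hosts, and TAC replicate 2 is at 0 for Zfp609, Hipk3 and Shoc2.

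As normalised reads over all 8 libraries the groups overlapped for each of the 4 circles, and every TAC library lay above every sham library for 0.884% of the circles tested by limma and 1.39% of those tested by edgeR. Among the 6 libraries over 5000 reads the 2 groups did not overlap for any of the 4 circles. This is not rare in the table, as it held for 23.8% of the circles tested by limma and 35.6% of those tested by edgeR. Without the 2 shallow libraries the limma log2 fold change was 2.91 ± 0.32 for Nfix (adjusted p = 0.0117), 6.21 ± 0.86 for Zfp609 (0.0163), 2.86 ± 0.36 for Hipk3 (0.0154) and 5.33 ± 0.76 for Shoc2 (0.0171). All 4 then passed, where 14.6% of 5809 circles were called higher in TAC. In edgeR without the same libraries all 4 passed as well, with 2.55 for Nfix, 5.27 for Zfp609, 2.62 for Hipk3 and 5.91 for Shoc2, where 16.4% of 1145 circles were called higher. For each of the 4 circles, TAC replicate 2 was the lowest TAC library and sham replicate 2 the highest sham library. Both libraries left out thus went against the difference. The Wilson interval of sham replicate 2 was 5.39 to 29.5 reads per 10000 for Zfp609 and 17.3 to 52.9 for Hipk3. These lay above the intervals of every other sham library, whose upper limits reached 2.15 and 14.8. For Nfix and Shoc2 its interval overlapped that of sham replicate 1. The deep sham libraries held 1, 0 and 0 reads of the Shoc2 circle and 2, 0 and 11 of the Zfp609 circle. These 2 thus met the minimum count of edgeR, which scales with depth, through TAC libraries alone. Shoc2 reached the limma filter through them too. Their passing in these fits is no independent support. With sample quality weights in limma, which keep all 8 libraries but count less those that fit less well, all 4 passed too, where 8.51% of circles were called higher. The weighted values were 2.65 for Nfix, 5.71 for Zfp609, 2.53 for Hipk3 and 4.79 for Shoc2. They lay nearer to the limma fit without the 2 shallow libraries than to the unweighted one, so they are no separate support. DESeq2 called Shoc2 only (4.63, adjusted p = 0.0459), where 0.562% of circles were called higher.

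**Figure D4:**
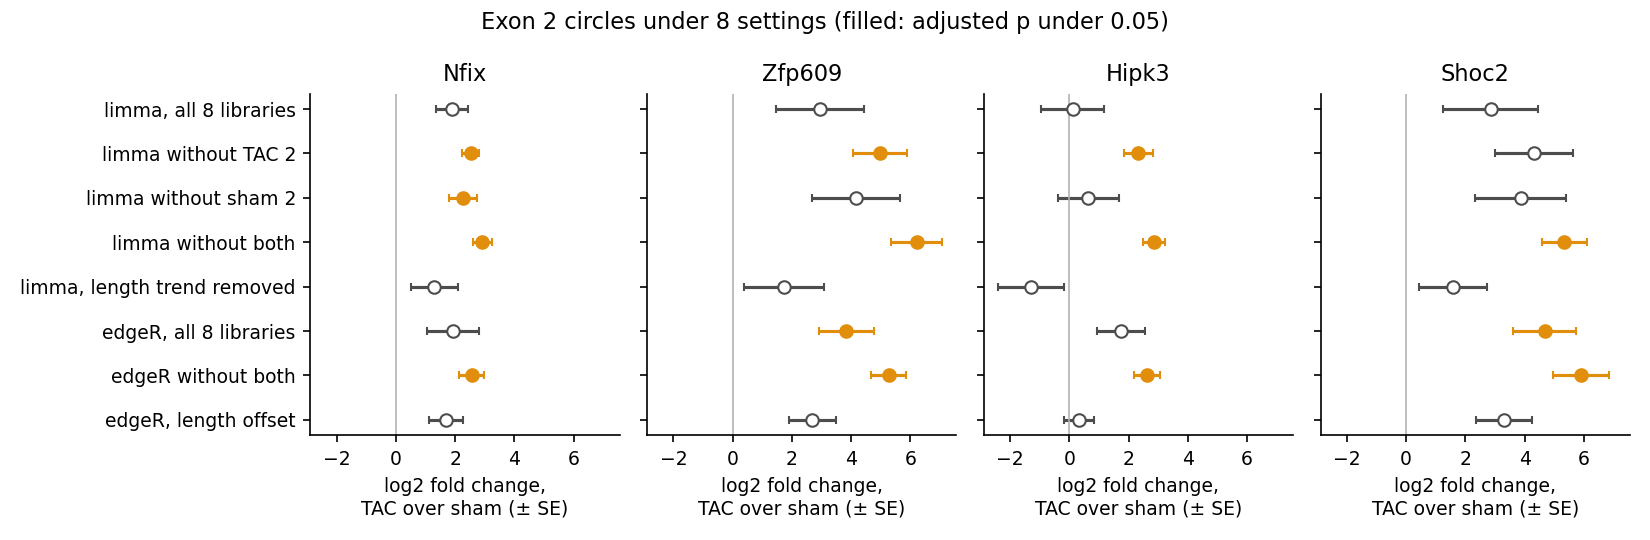
Log2 fold change, TAC over sham, with SE, of the 4 exon 2 circles under 8 settings, filled where the adjusted p is under 0.05. All 4 are filled without both shallow libraries, none is filled in unweighted limma with all 8 libraries or after the length trend is taken out, and Hipk3 is at -1.29 in limma with the length trend removed, against 0.11 with it.

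In pooled reads, with 91445 reads in TAC libraries and 162791 in sham libraries, the exon 2 circle was 4.90 times as frequent in TAC for Nfix (exact 95% interval 4.38 to 5.49) and 4.91 times for Hipk3 (4.02 to 6.02). It was 21.7 times as frequent for Zfp609 (13.4 to 37.2), on 219 reads in TAC and 18 in sham, and 39.2 times for Shoc2 (10.2 to 334), on 44 reads in TAC and 2 in sham. These intervals cover counting error only, and the pooled ratios give the deepest libraries the most weight.

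The ratio of reads between exon 2 circles of 1 library does not depend on how the library was scaled. The ratio of Nfix to Hipk3 reads was 2.15, 4.88 and 3.53 in TAC replicates 1, 3 and 4, against 4.02, 2.17, 3.10 and 2.72 in sham replicates 1 to 4, so the groups overlapped. The ratio of Nfix to Zfp609 reads was 7.20, 4.74 and 4.67 in the same TAC libraries, against 90.5, 5.20 and 17.1 in sham replicates 1, 2 and 4. Only sham replicate 2 overlapped there, on 26 Nfix and 5 Zfp609 reads. TAC replicate 2 had no Hipk3 or Zfp609 read and sham replicate 3 no Zfp609 read, so they gave no such ratio.

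Besides the exon 2 circle the 4 hosts made 14 rarer circles, 9 of them seen in at least 2 libraries. Nfix made one of exons 2 to 8 (1227 nt), with 21 reads in TAC and 3 in sham libraries, one of exons 3 to 8 (695 nt), with 12 in TAC and 1 in sham, and one of exons 3 to 10, with 2 in TAC and 0 in sham. Zfp609 made one of exons 2 to 3 (1100 nt), with 8 reads in TAC and 0 in sham. Shoc2 made one of exons 2 to 3 (1068 nt), with 5 in TAC and 2 in sham, and one of exons 2 to 4 (1199 nt), with 4 in TAC and 0 in sham. The rarer circles of Zfp609 and Shoc2, and 3 of the 5 of Nfix, thus began at the same exon 2.

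Hipk3 differed in this: none of its 6 rarer circles began at exon 2. Its circle of exons 9 to 13 (844 nt) had 14 reads in TAC and 17 in sham libraries, that of exons 5 to 7 (429 nt) had 4 in TAC and 3 in sham, and that of exons 4 to 8 had 2 in TAC and 2 in sham. The reads of these 3 circles were about as many in sham as in TAC, while the sham libraries held more reads in all.

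The rarer circles summed to 11.9, 0, 7.21 and 8.90 normalised reads for Nfix in TAC replicates 1 to 4, against 1.52, 0, 0 and 0 in sham replicates 1 to 4. For Hipk3 they summed to 5.95, 0, 6.18 and 6.36 in TAC and 3.03, 0, 0 and 2.72 in sham. For Shoc2 the sums were 4.46, 0, 1.03 and 1.27 in TAC and 0, 9.09, 0 and 0 in sham, the sham value being 2 reads of sham replicate 2. The 3 deep TAC libraries were above all deep sham libraries for each of these hosts, which held for 26.3% of the 1847 hosts tested on such sums.

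In limma on these sums over 1847 hosts, the log2 fold change was 3.40 ± 1.55 for Nfix, 1.78 ± 1.60 for Hipk3 and 1.14 ± 1.41 for Shoc2 (adjusted p = 0.99995 for each), against a median of 0.41 over all hosts. None of the 1847 hosts was called (0%), with 38 at an unadjusted p under 0.05, while edgeR called 5 and DESeq2 3. The Nfix sum passed without the 2 shallow libraries, at 4.54, where 2.26% of 2393 hosts were called higher. The deep sham sums were 1.52, 0 and 0, and the TAC libraries alone met the filter of that fit. This pass is therefore no independent support. With 1 added in place of 0.195 the sums gave 2.18 for Nfix, 1.15 for Hipk3 and 0.33 for Shoc2. The sum for Zfp609 was above 0 in 3 libraries and did not meet the filter.

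The change of the exon 2 circle relative to the rarer circles of its own gene was then tested. The log2 fold change of that ratio was -1.52 ± 1.11 for Nfix (SE, limma adjusted p = 0.659), -1.67 ± 1.47 for Hipk3 (0.744) and 1.71 ± 1.19 for Shoc2 (0.644), against a median of -0.34 over 1267 hosts. None of the 1267 hosts was called (0%), with 115 at an unadjusted p under 0.05. In a library without a read of the host, which is TAC replicate 2 for Hipk3 and TAC replicate 2 with sham replicates 3 and 4 for Shoc2, the added 0.195 alone sets this ratio, at a log2 value of 0. In other libraries only the rarer circles were at 0, and the added 0.195 stood in for them. These were TAC replicate 2 and sham replicates 2 to 4 for Nfix, sham replicates 2 and 3 for Hipk3, and sham replicate 1 for Shoc2. The ratios thus depend strongly on the added number. With 1 added in place of 0.195 the values were -0.31 for Nfix, -0.52 for Hipk3 and 1.63 for Shoc2. For Hipk3 the sign turned to 0.48 without the 2 shallow libraries.

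The exon 2 circles of the 4 hosts have 532 to 1099 nt, and changes across the table differed by circle length. Among circles tested by edgeR the median log2 fold change was -1.34 below 300 nt (105 circles, 0 called higher and 22 lower), -0.31 from 300 to 500 nt (350, 5 higher and 19 lower) and 0.57 from 500 to 800 nt (182, 22 higher and 0 lower), the class of Nfix. It was 1.47 from 800 to 1200 nt (52, 13 higher and 0 lower), the class of Zfp609, Hipk3 and Shoc2, and 2.53 from 1200 nt on (24, 12 higher and 0 lower). Zfp609 and Shoc2 lay above the median of their class and Hipk3, at 1.75, close to it.

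With each library's trend over circle length used as an offset, the edgeR log2 fold change was 1.69 for Nfix (adjusted p = 0.103), 2.69 for Zfp609 (0.0734), 0.32 for Hipk3 (0.732) and 3.29 for Shoc2 (0.0734). No circle of the 713 passed in that fit (0%), with 161 at an unadjusted p under 0.05. In limma with the trend removed the values were 1.29, 1.74, -1.29 and 1.59 in the same order of hosts, none past the threshold.

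**Figure D5:**
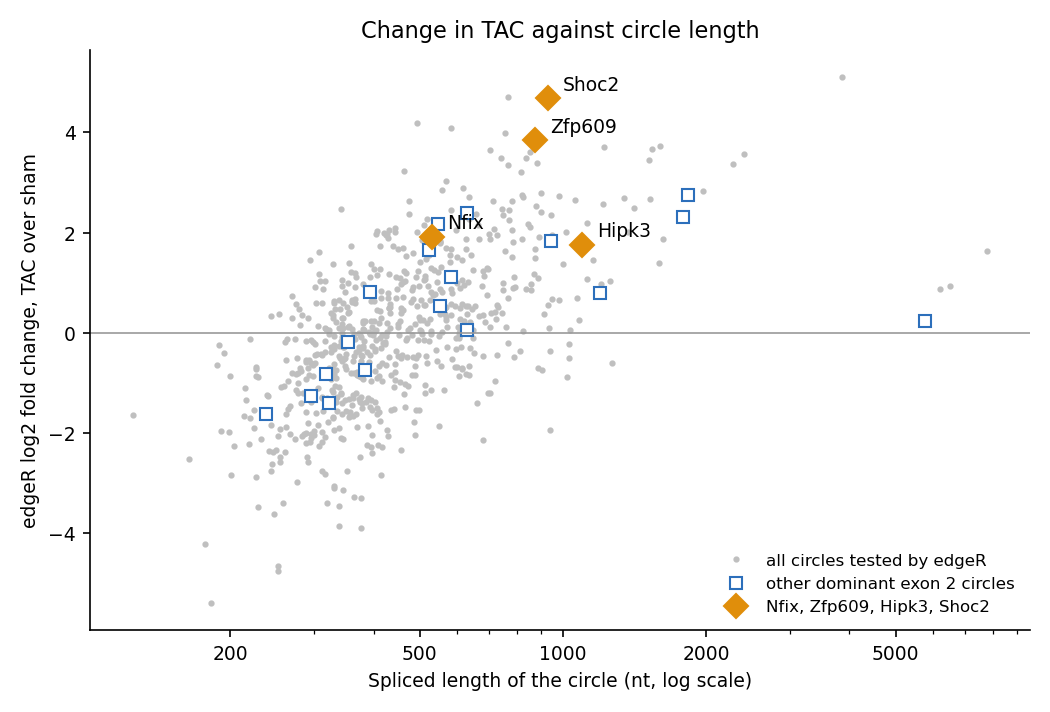
Log2 fold change, TAC over sham, from edgeR against spliced length on a log axis, for all circles tested, the other dominant exon 2 circles (squares) and the 4 hosts (diamonds). The cloud climbs with length, Shoc2 (4.67) and Zfp609 (3.84) lie at its upper edge, Nfix (1.92) at 532 nt lies above the median of 0.57 for 500 to 800 nt, and Hipk3 (1.75) at 1099 nt lies within it.

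The 32 other hosts with a dominant exon 2 circle were compared for their response. Their circles had a median length of 548.5 nt, against 902 nt for the 4 hosts. Of 18 tested by edgeR, 4 were called higher and 0 lower, with a median log2 fold change of 0.66, against 2 of 4 higher and a median of 2.88 for the 4 hosts, where 7.39% of all 717 circles were called higher. The called ones were Slc8a1, the sodium-calcium exchanger (2.74), Setbp1 (2.38), R3hcc1l (2.31) and Igf1r, the IGF1 receptor (2.16), all 4 named for passing. Of 31 tested by limma, 21 were positive and 1 was called, with a median of 0.67, against 0 called and a median of 2.37 for the 4 hosts. The one called was Slc8a1 (3.03 ± 0.53, SE, adjusted p = 4.36e-05), the only circle that limma called among 3735. With the length trend removed it was at 1.34 and did not pass. Among the studied hosts, Zfp609 and Shoc2 had edgeR increases known beforehand. The counts and medians of the 4 hosts are therefore a description and no independent comparison with the other 32. The short exon 2 circles of Med13l (238 nt) and Gab1 (295 nt) had values of -1.63 and -1.26, and the 5772 nt circle of Tcf20 had 0.23, none past the threshold. A dominant exon 2 circle was thus seen with values of either sign.

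The paralogs of the hosts differed in where they made circles. Nfib had 103 reads in all, mostly of exons 5 to 6, 4 to 6, 3 to 6 and 2 to 6, and Nfia had 63, mostly of exons 3 to 6 and 3 to 7, with no single exon 2 circle. No circle of Nfic was read. Hipk2 had 14 of its 25 reads in a single exon 2 circle of 1084 nt, Hipk1 had 10 reads and Hipk4 none. Zfp608, the paralog of Zfp609, had 8 of 20 reads in an exon 2 circle of 1096 nt and 10 in a circle of exon 3. Hipk2, Zfp608 and, with the 2 reads given above, Nfib thus also made a single exon 2 circle, on far fewer reads than the studied hosts.

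Circles of the genes that work with SHOC2 gave 1 call. Of the SHOC2 complex and Ras-MAPK pathway, 21 of 30 genes gave circles, among them none of Mras, Hras or Araf. Of its 25 circles tested by limma none passed, 10 were positive, and the median log2 fold change was -0.19, against 0.15 for all circles. Of 9 tested by edgeR, 0 rose and 1 fell, where edgeR called 7.39% of all circles higher and 5.72% lower. Their median was -0.53, against -0.02 for all. The one that fell was exons 2 to 4 of Erbin, a scaffold that binds SHOC2, which averaged 7.53 ± 4.41 normalised reads in TAC and 60.9 ± 44.8 in sham (SD, n = 4 each), a log2 fold change of -3.28 ± 0.88 (edgeR adjusted p = 0.00849). Erbin's circle has 364 nt, in a length class whose median was below 0.

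The other 8 did not pass in edgeR. Their values ran from -1.97 for Rras2 to 1.79 for Spred1, with Spred2 at 0.44, Map2k1 at -0.67 and 2 circles of Sos2 at -0.28 and -0.70. Of a list of the paralog Zfp608 with the cohesin loader and Integrator partners of Zfp609, 13 of 15 genes gave circles. In limma 5 circles of this list were tested and none called, with a median of 1.03, among them exon 3 of Zfp608 at 2.38. The 7 tested circles of Nfia and Nfib had a median of 0.78, with none called, and the 1 tested Hipk2 circle 0.41. Of the circle hosts studied in several tissues, 26 circles were tested by edgeR, of which 4 were higher, from Ryr2, Zfp148, Slc8a1 and Ttn, and 0 lower, with a median of 0.55, beside the same 7.39% higher and 5.72% lower over all circles.

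Across the 8 libraries the 4 exon 2 circles followed each other. The correlation of their log2 levels was 0.96 between Nfix and Shoc2, 0.94 between Zfp609 and Shoc2 and 0.91 between Nfix and Zfp609, while the pairs with Hipk3 had 0.66 with Nfix, 0.78 with Shoc2 and 0.83 with Zfp609. In the 6 deep libraries the 6 pairs ran from 0.93 to 0.99. The points share libraries, depth and the TAC and sham groups, so these values describe the pattern only.

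The circles of other hosts most like each exon 2 circle, by Pearson's r over the 8 libraries among 1430 candidates, were of middle or longer length. For Nfix they came from Rbm4 (0.963), Ttn exons 104 to 110 (0.944) and Nsd2 exons 1 to 2 (0.943). For Zfp609 they came from Rbm33 exons 8 to 10 (0.988), Pdlim5 exons 7 to 10 (0.987) and Hdgfl3 exons 2 to 5 (0.975). For Hipk3 they came from Fbxl17 exons 2 to 4 (0.995), Apoo exons 2 to 7 (0.991) and Setd3 exons 2 to 6 (0.989). For Shoc2, among 1431, they were the circle of Rbm4 (0.964), the exon 2 circle of Nfix itself (0.962) and that of Pdlim5 (0.960). Apart from the Rbm4 circle, which matched no exon pair of GENCODE M21, these circles had 513 to 789 nt.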

How the data were processed

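The labels' protocols state that circular RNA was extracted from heart tissue with a commercial kit and that a company made the libraries. The submitters' processing notes list mm10 with HISAT2, StringTie and DESeq2 and say nothing of their roles or versions. The circle caller, read length and strand were not given in the sources used, so overlapping and antisense genes were not separated. The deposited values have the unit signal: back-spliced reads divided by 1 size factor per library, as read from the values. Whole reads were recovered (100% of values whole within 0.001). Values are not scaled by length. The labels' protocols give 4 animals for each group, so a replicate is 1 mouse.

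limma 3.58.1 with an intensity trend was run on log2(value + 0.195), the added number being the lowest positive value, on the 3735 circles detected in 4 or more of the 8 libraries, and likewise on host sums without the top circle and on the ratio of the 2. In the main fits on circles and on host sums its SE and p-values follow the trend over all circles or hosts, not the spread of a single one between mice. In some other fits, among them the ratio and those without both shallow libraries, that spread enters as well. As an added alternative, the quasi-likelihood test of edgeR 4.0.16 (TMM, minimum count 5, minimum total 15) was fitted to whole reads of 717 circles, of which it called 94. DESeq2 1.42.0 and limma with 1 added before the log were other alternatives. Benjamini-Hochberg adjusted p-values run over all circles or hosts tested, with a threshold of 0.05. Of the 18 circles, 8 were tested by limma and 4 by edgeR. The length trend is a loess (span 0.5) of each library's deviations on log2 spliced length. Exons, lengths and sequences come from GENCODE M21, of the build of the files. Scripts were tested on simulated data.

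The members and gene lists were chosen with earlier results of these data known. Named were circles of the 4 hosts seen in at least 2 libraries, the 3 circles most like each exon 2 circle among those seen in at least 6 libraries, list genes with a circle tested by edgeR (else the 2 with the largest mean) and Slc8a1. Of the circle hosts studied in several tissues the called ones were named, and these, R3hcc1l, Setbp1, Igf1r, Med13l, Gab1, Tcf20, Dlc1, Phlpp2 and Insr were picked after their values were seen. Values of some list genes are not reported here.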

Additional observations from a re-analysis of the deposited data

Results flagged for a closer look

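In groups of 4 libraries, 7 of 24 groups had 1 library far from the other 3 by Dixon's test. For independent, normally distributed values this happens in about 1 of 20 groups. The groups here hold zeros and count the same reads on 2 scales, so that rate does not apply to them and the flags are a description. Sham replicate 2, of 3963 reads, accounted for 5 of the 7 flagged groups. Its Zfp609 exon 2 circle was at 22.7 normalised reads and 12.6 reads per 10000, on 5 reads. Its Shoc2 exon 2 circle was at 4.54 normalised reads and 2.52 reads per 10000, on 1 read. Its rarer Shoc2 circles summed to 9.09 normalised reads, on 2 reads, while the other 3 sham libraries were at 0. The rarer Nfix circles of sham replicate 1 summed to 1.52 normalised reads, with the other sham libraries at 0. The rarer Hipk3 circles were at 0 in TAC replicate 2, with the other TAC libraries between 5.95 and 6.36.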

How the results depend on the processing

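No paired analysis was possible because the labels give no replicate numbers. The settings with library totals, RLE factors, no intensity trend, and edgeR with libraries left out or with a length offset were chosen after seeing the data. Depth limits every value here: most rarer circles rest on under 10 reads per group, and Shoc2 on 2 reads in sham. Sample quality weights made all 4 exon 2 circles pass, at 2.65 for Nfix, 5.71 for Zfp609, 2.53 for Hipk3 and 4.79 for Shoc2, and the rarer Nfix circles at 4.28. Without both shallow libraries limma gave 2.91, 6.21, 2.86 and 5.33 for the 4 circles in the same order and 4.54 for the rarer Nfix circles, and edgeR 2.55 for Nfix and 2.62 for Hipk3. In edgeR on all libraries Zfp609 (3.84) and Shoc2 (4.67) passed, and in DESeq2 Shoc2 (4.63), but with the length offset edgeR gave 2.69 and 3.29 for them, past no threshold. The Hipk3 circle was reversed in limma with library totals (-0.24) and with the length trend removed (-1.29), and its ratio to the rarer circles with quality weights (0.14) and without both shallow libraries (0.48). The cause was not tested. limma called 1 circle, and 0 with TMM, a filter of 10 reads, no intensity trend or the length trend removed, but 396 with weights, 1037 without both shallow libraries, 94 in edgeR and 34 in DESeq2. edgeR called 61 with library totals, 344 without both shallow libraries and 0 with the length offset. Hosts called on their rarer circles were 0, but 113 with weights, 55 without both shallow libraries, 2 with library totals, 5 in edgeR and 3 in DESeq2, and those called on the ratio 0, but 65 without both. With each library left out in turn, the log2 fold changes ran in limma and edgeR from 1.54 to 2.52 and from 1.63 to 2.36 for Nfix, from 1.88 to 4.98 and from 3.14 to 5.02 for Zfp609, from -0.82 to 2.33 and from 1.45 to 2.28 for Hipk3, and from 2.20 to 4.31 and from 3.67 to 5.62 for Shoc2. limma passed for Nfix without TAC replicate 2 or sham replicate 2, and for Zfp609 and Hipk3 without TAC replicate 2, and edgeR for Nfix without TAC replicate 2 and for Hipk3 without either. The rarer circles ran from 3.14 to 4.80 for Nfix, from 1.12 to 3.04 for Hipk3 and from 0.68 to 1.99 for Shoc2, and the ratios from -2.28 to -0.87, from -2.45 to -0.48 and from 1.66 to 2.32. Counts ran from 0 to 41 circles in limma, 0 to 248 in edgeR, and 0 to 12 hosts on rarer circles, and stayed at 0 on the ratio. The Shoc2 circle under the filter of 10 reads gave no value, nor did the rarer circles of Nfix and Shoc2 in 4 of the 8 fits that leave out 1 library. The rarer Zfp609 circles failed the filter on all 8 libraries, and with no filter gave 2.54 and a ratio of 0.40, neither past the threshold.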
